A study of Mus musculus with 4 samples.

Results

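The BCL2 survival and effector genes decide whether the outer mitochondrial membrane of a cell stays closed or opens, and they were examined here in BCR-ABL1-transformed mouse cell lines with and without inhibitor-resistant CDK4 and CDK6. The list held 10 genes: the survival genes Bcl2, Bcl2l1, Bcl2l2, Mcl1, Bcl2a1a, Bcl2a1b and Bcl2a1d, and the effector genes Bax, Bak1 and Bok. Probes were assigned by the RefSeq accession that the scanner files give for each probe. This gave 11 probes for 8 of the 10 genes, out of 55681 probes and 20972 genes with a symbol on the array. Bcl2l1, Bcl2l2 and Mcl1 had a brighter and a dimmer probe each, the other 5 genes had 1 probe, and the accessions of Bcl2a1a and Bcl2a1b were carried by none of the probes analysed here.

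The R/R lines were homozygous for the knock-in alleles Cdk4 R24C and Cdk6 R31C, changes known to stop INK4 inhibitors from binding the kinases. The WT lines had wild-type kinases. All lines came from fetal liver, were transformed with the p185 form of BCR-ABL1, and were clones that immortalised spontaneously. Their background is given as mixed C57BL/6J x CD-1, whereas the strain recorded for each array is C57BL/6J alone. Cells grew asynchronously, and 100 ng of total RNA was labelled. RNA of R/R clone 1, clone 2 and clone 3 (Cy5) was hybridised on 1 array each against a WT pool (Cy3), and the fourth array carried an R/R pool (Cy3) against the WT pool (Cy5). The IDs of clones 1 and 2 share their first part and that of clone 3 differs, and nothing says how the clones are related. The series' text speaks of 3 control replicates, but every array carried the WT pool, and what the pools held is not stated in the sources used here. Every ratio is R/R over WT on the log2 scale, with the sign turned on the dye-swapped pool array.

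BCL2 family proteins act by binding each other. Survival members such as BCL-2, BCL-XL, BCL-w, MCL-1 and A1 hold the effectors BAX and BAK in check, and BH3-only proteins release that hold when a cell is stressed. Free BAX and BAK form oligomers in the outer mitochondrial membrane, cytochrome c leaves the mitochondria, and caspases are activated on APAF1. In B-cell progenitors and in BCR-ABL1 leukaemia, MCL-1 and BCL-XL are known as survival factors, and the BCR-ABL1 kinase is known to raise BCL-XL through STAT5.

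The mouse A1 protein is encoded by several near-identical genes, and the sequences just upstream of their annotated starts show how close the listed copies are in that stretch. Only 1 probe, assigned to Bcl2a1d, was found for the listed copies, and RNA of a sister copy could bind it too. The bases shown lie before the starts, so they do not tell whether this happens. The sequence of the probe was not available to check. The 250 bases before each start, all on chromosome 9, are given below from RefSeq on GRCm38.p6. Capitals in Bcl2a1a and Bcl2a1b mark bases that differ from Bcl2a1d or have no partner in it where the sequences align.
Bcl2a1d, chr9:88731851-88732100, minus strand: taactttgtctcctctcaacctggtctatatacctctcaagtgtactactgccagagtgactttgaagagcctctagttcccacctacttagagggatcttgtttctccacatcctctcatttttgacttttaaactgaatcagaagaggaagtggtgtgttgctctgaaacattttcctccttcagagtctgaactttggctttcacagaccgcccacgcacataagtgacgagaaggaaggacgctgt
Bcl2a1a, chr9:88956670-88956919, plus strand: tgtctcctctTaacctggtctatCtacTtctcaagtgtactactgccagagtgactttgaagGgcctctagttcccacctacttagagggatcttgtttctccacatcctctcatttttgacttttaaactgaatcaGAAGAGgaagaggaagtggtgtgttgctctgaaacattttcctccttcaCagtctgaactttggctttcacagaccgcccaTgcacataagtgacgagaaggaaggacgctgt
Bcl2a1b, chr9:89199023-89199272, plus strand: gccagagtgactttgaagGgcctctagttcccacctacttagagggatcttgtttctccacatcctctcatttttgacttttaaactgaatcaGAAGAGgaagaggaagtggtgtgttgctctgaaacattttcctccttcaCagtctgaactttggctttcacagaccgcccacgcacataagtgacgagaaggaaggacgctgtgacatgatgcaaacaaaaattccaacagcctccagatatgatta

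Bcl2a1a matched Bcl2a1d at 97.5% of 244 aligned bases, with 6 mismatches and 6 extra bases. Bcl2a1b matched Bcl2a1d at 99% of 200 aligned bases, with 2 mismatches and the same number of extra bases, 6. Its annotated start lies further downstream, so its last 44 bases had no partner in the window of Bcl2a1d.

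Bcl2a1d, a copy of the A1 survival gene and a known target of NF-kB, was dimmer in R/R than in WT, with R/R signals mostly not well above background. Normalised intensity, the brightness of 1 dye on the probe after correction, was 75.4 in R/R clone 1, 59.4 in clone 2, 88.9 in clone 3 and 80.9 in the R/R pool. The WT pool gave 143, 140, 156 and 153 on the same arrays. All 4 R/R values lay below all 4 WT values, which repeat 1 pool, and the share of probes separated like this was not counted. Only the R/R value of clone 3 was well above background, whereas the WT channel was well above background on every array. The log2 ratios were -0.93 in clone 1, -1.24 in clone 2, -0.81 in clone 3 and -0.92 in the pool. The fitted value over the 4 arrays was -0.96 ± 0.11 (SE, 3 clones and 1 pool), which passed the threshold (limma adjusted p = 0.044). The probe entered the test through the WT channel alone, where it was high, so its selection favoured a lower R/R value and the fitted value is not an exact fold. In bulk RNA, fewer cells with a transcript and less of it per cell cannot be told apart.

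The size of the Bcl2a1d difference varied with the processing. With a normexp offset of 16 in place of 50 the fitted value was -1.46 (limma adjusted p = 0.033). In the R/R pool the measured level was 1.89-fold lower than in the WT pool. The probe was not well above background in the R/R pool, so this is neither an exact fold nor a lower bound. The scanner software's own log ratios, which differ in background, dye correction and signal processing together, gave -3.03, -3.66 and -1.86 in clones 1, 2 and 3 and -3.23 in the pool, with a fitted value of -3.04 that did not pass (limma adjusted p = 0.141). The call was also lost with the filter that asks for both channels on all arrays, under which the probe was not tested, with median centring (adjusted p = 0.105) and without clone 1 (adjusted p = 0.102). The sign was negative on all 4 arrays in both sets of ratios. Both sets come from the same spots, and the selection through the WT channel favoured that sign, so this adds no separate support.

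**Figure D1:**
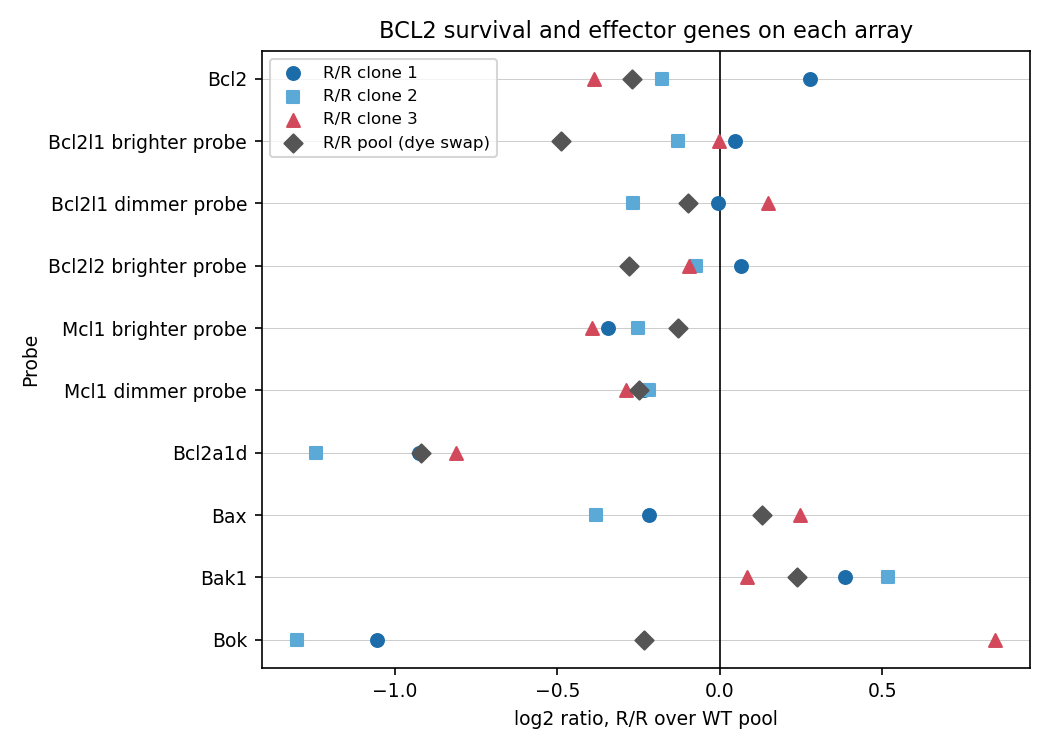
Log2 ratios of R/R over the WT pool for each of the 10 member probes tested (rows), with 1 point per array; circles, squares and triangles are R/R clones 1, 2 and 3 and diamonds the dye-swapped R/R pool. Bcl2a1d lies between -1.24 and -0.81 on all arrays, and Bok runs from -1.30 in clone 2 to 0.85 in clone 3.

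Among 10 member probes that were well above background often enough to be tested, 1 was called lower in R/R and 0 higher. The called probe was Bcl2a1d, which entered the test through the WT channel alone, so its selection favoured a lower R/R value. With both channels required on all arrays, the count lower was 0. The threshold was a limma adjusted p under 0.05, and over all 26439 probes tested it called 0.586%, with 0.401% lower and 0.185% higher in R/R. These were 106 probes lower and 49 higher, a split that was 49 and 8 with the scanner software's ratios and 29 and 3 with median centring. The smallest called ratio on the array was 0.66 in size, so the smaller member values below lie under what this design called. Before adjustment 5 of the 10 had a p under 0.05 (Bcl2a1d, both Mcl1 probes, the brighter Bcl2l1 probe and Bak1), against 14.9% of all probes. Both Mcl1 probes read the same RNA, and the selection of Bcl2a1d favoured its low value. The brighter Bcl2l1 probe leaned on the pool array, with -0.03 in the clones alone. The count is thus no result about the family as a set. Of the 10 member probes 4 had 1 sign on all 4 arrays, both Mcl1 probes among them, against 30.1% of all probes tested. The median fitted ratio was -0.21 over the member probes and -0.01 over all probes. The test uses the spread among the clones, with 2 residual degrees of freedom, and leaves out that of the WT pool, which was the same on every array. The WT values given for a probe are thus repeated readings of 1 pool, not separate WT samples.

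Mcl1, the short-lived survival protein gene, had the closest values of all members. Its brighter probe gave 2934, 3177 and 2779 in R/R clones 1, 2 and 3 and 3090 in the R/R pool, against 3722, 3779, 3646 and 3381 in the WT channel of those arrays. Each R/R value lay below each WT value, but the WT values repeat 1 pool. How many probes separate like this was not counted. The log2 ratios ran from -0.39 in clone 3 to -0.13 in the pool, with a fitted value of -0.23 ± 0.09 (SE, limma adjusted p = 0.315). The dimmer probe gave 796, 816, 807 and 790 in R/R clones 1, 2 and 3 and the R/R pool, against 936, 948, 986 and 940 in WT. Its ratios of -0.29 to -0.22 had a clone range of 0.07, and 95.8% of probes tested had a wider one. The fitted value of -0.25 ± 0.09 did not pass (limma adjusted p = 0.275), with a 95% interval from -0.46 to -0.03. Both Mcl1 probes were below 0 on all 4 arrays, and they read the same RNA.

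Bcl2l1, which encodes BCL-XL, gave different pictures in the clones and the pool. Its brighter probe stood at 5054, 4497 and 4888 in R/R clones 1, 2 and 3, against 4897, 4916 and 4899 in WT, ratios of 0.05, -0.13 and -0.0031. In the R/R pool it stood at 3769 against 5286 in WT, a ratio of -0.49. The fitted value of -0.26 ± 0.09 (limma adjusted p = 0.276) is pulled down by the pool array, and the clones alone gave -0.03. The pool array is also the only one with swapped dyes, so a pool that differs from the clones and a dye effect on this probe cannot be told apart. The dimmer probe gave -0.07 ± 0.11 (adjusted p = 0.797), from -0.27 in clone 2 to 0.15 in clone 3, and its pool value of -0.10 was 0.39 above that of the brighter probe.

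Bcl2, the founding survival gene of the family, varied between clones. It measured 424 in R/R clone 1, 297 in clone 2, 270 in clone 3 and 292 in the R/R pool, against 350, 337, 353 and 352 in WT. R/R clone 1 lay above every WT value and the other R/R samples below. The fitted ratio was -0.18 ± 0.14 (limma adjusted p = 0.584), with a 95% interval from -0.54 to 0.17. For Bcl2l2, which encodes BCL-w, the brighter probe gave 219, 240 and 239 in R/R clones 1, 2 and 3 and 214 in the R/R pool, against 209, 252, 255 and 260 in WT. These sets overlapped, and the fitted ratio was -0.16 ± 0.09 (adjusted p = 0.469). The dimmer Bcl2l2 probe was not well above background in any channel and was not tested.

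**Figure D2:**
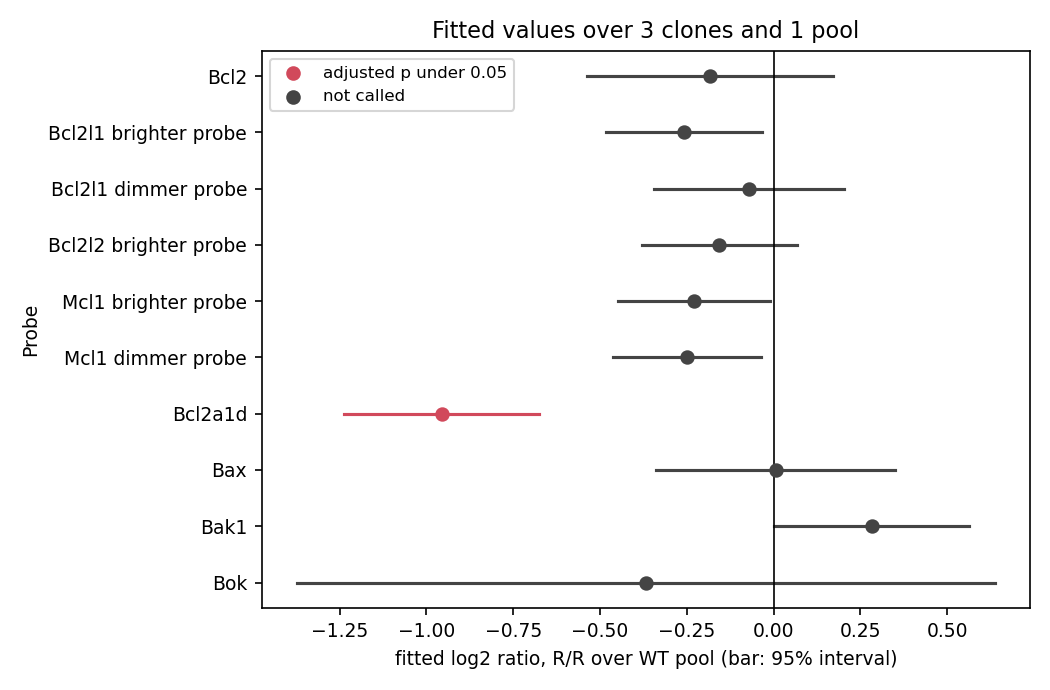
Fitted log2 ratios of R/R over the WT pool for the 10 member probes tested, over 3 clones and 1 pool; bars are 95% intervals and red marks an adjusted p under 0.05. The interval of Bcl2a1d, the only one in red, ends at -0.67, and that of Bok, the widest, spans -1.37 to 0.64.

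None of the 3 effector genes passed the test. Bak1, which encodes the effector BAK that resides on mitochondria, measured 4891, 5787 and 4260 in R/R clones 1, 2 and 3 and 4994 in the R/R pool, against 3741, 4040, 4021 and 4238 in WT. Each R/R value lay above each WT value, which repeat 1 pool, and how many probes separate like this was not counted. Within the arrays the R/R values were higher by 0.39, 0.52, 0.08 and 0.24 on the log2 scale. The fitted ratio of 0.28 ± 0.11, or 1.22-fold, did not pass (limma adjusted p = 0.333). Bak1 and Mcl1, whose protein is known to hold BAK inactive, thus had opposite signs on all 4 arrays, and the ratio of Bak1 exceeded that of the brighter Mcl1 probe by 0.37 to 0.77. Neither gene passed on its own, and this difference was chosen after the values were seen and was not tested. Of all probes tested, 30.1% had 1 sign on all 4 arrays.

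Bax, the effector that moves from the cytosol to mitochondria, showed no common direction. R/R clones 1 and 2 gave 2527 and 2378, clone 3 gave 3744 and the R/R pool 3003, against 2942, 3097, 3157 and 2744 in WT. On their own arrays, clones 1 and 2 lay below WT and clone 3 and the pool above it, and the groups overlapped. The fitted ratio was 0.01 ± 0.14 (limma adjusted p = 0.987), with a 95% interval from -0.34 to 0.35. The balance of Bax to Bcl2, often used as a summary of the pathway, moved likewise: the ratio of Bax minus that of Bcl2 was -0.50 in clone 1, -0.20 in clone 2, 0.63 in clone 3 and 0.40 in the pool.

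Bok, which encodes a BAX-like effector kept low by protein degradation, separated the R/R clones from each other more than it separated R/R from WT. It measured 975 in clone 1, 854 in clone 2, 3856 in clone 3 and 1736 in the R/R pool, against 2025, 2105, 2145 and 2040 in WT. The WT channel was nearly level across the arrays, whereas clones 1 and 2 lay far below it and clone 3 far above. The log2 ratios were -1.05, -1.30, 0.85 and -0.23. Clone 3 exceeded the mean of clones 1 and 2 by 2.02 on the log2 scale, 4.07-fold, while clones 1 and 2 differed by 0.25. Only 0.533% of the probes tested had a wider range over the clones than the 2.15 of Bok, and the median range was 0.32. With 1 array per clone the differences between clones have no test.

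Across R/R and WT, Bok had a fitted ratio of -0.37 ± 0.41 (limma adjusted p = 0.707), which depended on clone 3. Without clone 3 it was -0.71 (adjusted p = 0.053), without clone 1 it was -0.23 and without clone 2 it was -0.17. The fit without clone 3 keeps clones 1 and 2, whose IDs share their first part. It has 1 residual degree of freedom and called 1.37% of all probes.

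**Figure D3:**
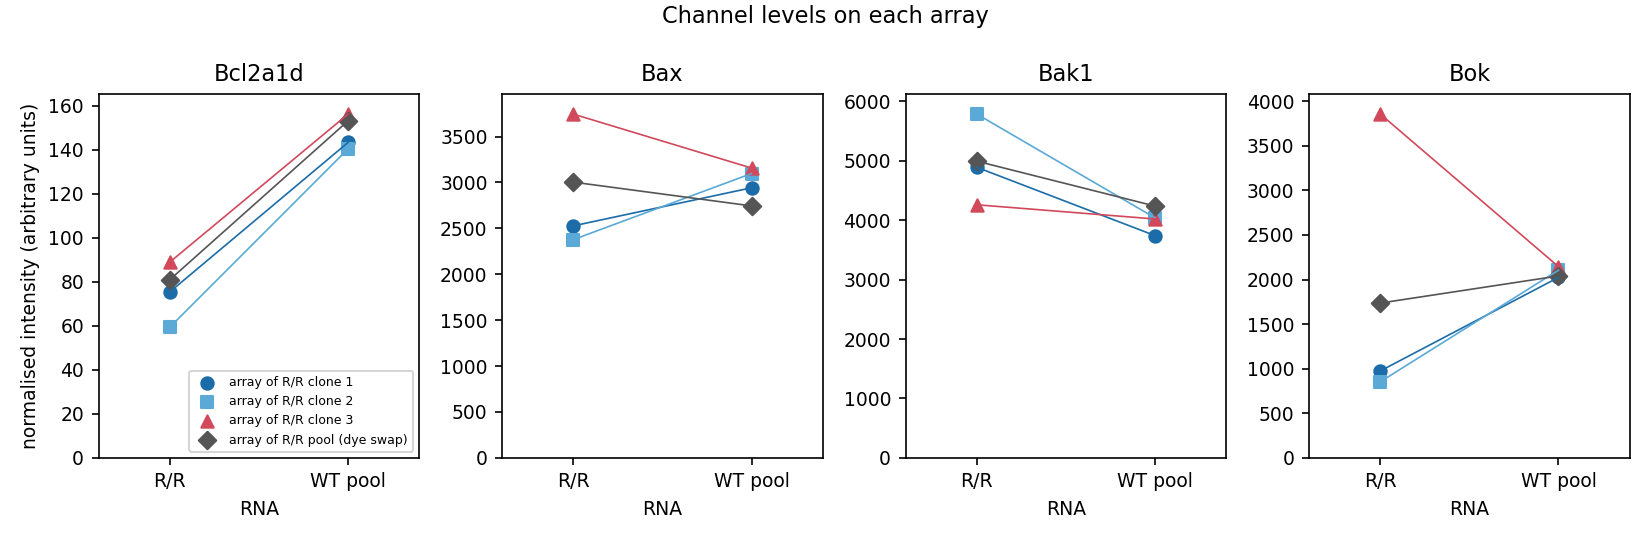
Normalised intensity of the Bcl2a1d probe and the 3 effector probes in the R/R channel (left) and the WT pool channel (right) of each array, joined by a line per array; intensities of different probes are not comparable. R/R clone 3 is the highest R/R sample for Bok (3856) and Bax (3744) and the lowest for Bak1 (4260).

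The gap between clone 3 and the other clones varied among the remaining members. Bax was 0.55 higher in clone 3 than the mean of clones 1 and 2, which differed from each other by 0.16. Bak1 was lower in clone 3 (-0.37), with 0.13 between clones 1 and 2. For Bcl2 the gap to clone 3 (-0.44) was no wider than the one between clones 1 and 2 (0.46). Over the 10 probes tested, 6 had a wider gap to clone 3 than between clones 1 and 2, which is near the share of 51.9% over all probes tested. The median ratio of the member probes was -0.11 in clone 1, -0.23 in clone 2, -0.05 in clone 3 and -0.24 in the pool, where the medians over all probes lay between -0.02 and 0.01.

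In the wider mitochondrial death pathway 40 further genes fell into 5 lists, and 34 had a probe that could be tested. Of their 46 probes 1 was called lower and 0 higher, where 0.586% of all probes were called, and a count of 1 says nothing about the pathway as a whole. The called gene was Bbc3, the BH3-only gene for PUMA, a protein that binds all the main survival members. Its ratios were -1.67, -1.21 and -1.38 in clones 1, 2 and 3 and -1.39 in the pool, all below WT. The fitted value of -1.41 ± 0.12 (limma adjusted p = 0.019) was the lowest in these lists, and it did not pass with the scanner software's ratios (adjusted p = 0.105) or with median centring (adjusted p = 0.0996). Among the 8 BH3-only probes tested, 4 lay below 0 and 4 above, with a median of 0.02. Next was Bmf, a BH3-only gene tied to the cytoskeleton, at -0.56 ± 0.09 (adjusted p = 0.090). Hrk and Bik were not well above background in any channel.

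Downstream of the effectors, none of the 12 probes of apoptosome and caspase genes was called, and their fitted values ran from -0.16 to 0.26. Cycs, the cytochrome c gene, had the smallest p at 0.26 ± 0.11 (limma adjusted p = 0.331), with ratios of 0.20, -0.17 and -0.01 in the clones and 0.52 in the pool. The initiator caspase gene Casp9 followed at -0.14 ± 0.09 (adjusted p = 0.505). The 13 probes of genes that handle the effectors or the MCL-1 protein lay between -0.10 and 0.18, 11 of them above 0, and none was called. They include Vdac2, a channel that holds BAK at mitochondria, at 0.16 ± 0.09 (adjusted p = 0.454), and the co-chaperone gene Bag1 at 0.18 ± 0.09 (adjusted p = 0.429), with a dimmer probe at 0.08.

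The remaining BCL2-like genes had 5 probes tested and none called, from -0.18 to 0.11. They were led by Bcl2l13 (0.11 ± 0.09, limma adjusted p = 0.578) and Bcl2l12 (-0.10 ± 0.11, adjusted p = 0.698). Bcl2a1c and Bcl2l10 were not well above background in any channel. Of the transcription factors known to act on member genes, none of 8 probes was called. Stat5b, which with STAT5A drives Bcl2l1, stood at 0.29 ± 0.12 (adjusted p = 0.353) and at 0.09 by its other probe. Nfkb1, an NF-kB subunit gene, stood at -0.11 ± 0.10 (adjusted p = 0.630) and at -0.03 by its other probe.

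**Figure D4:**
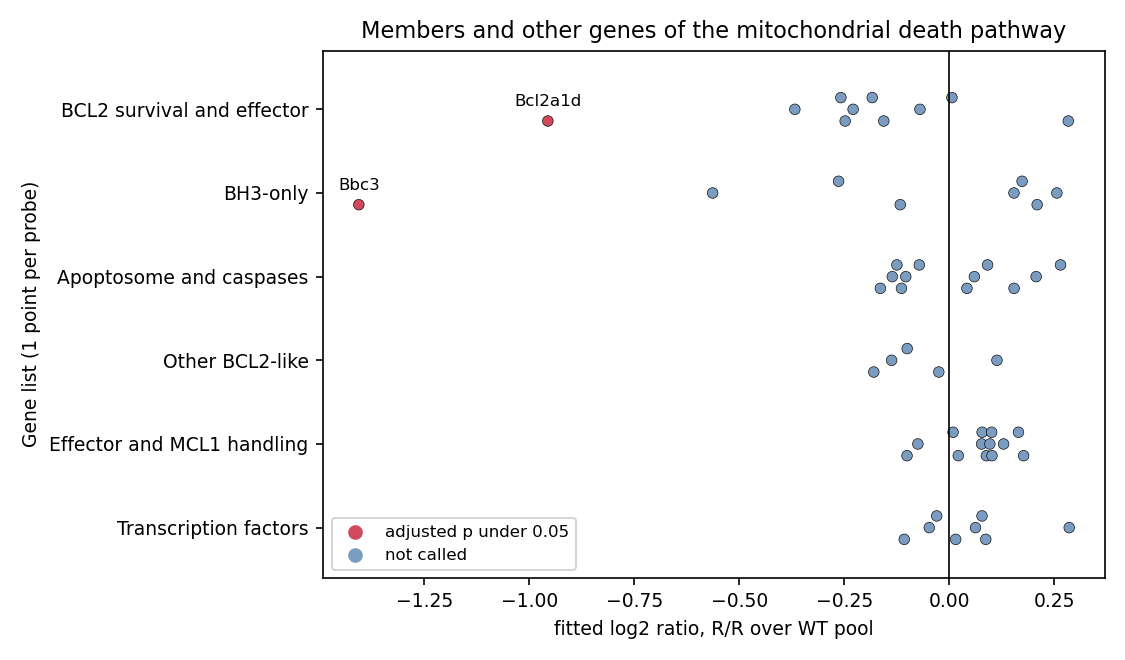
Fitted log2 ratios of R/R over the WT pool for the member probes (top row) and for probes of 5 lists of related genes, with 1 point per probe tested and red for an adjusted p under 0.05. Bcl2a1d (-0.96) and Bbc3 (-1.41) are the only points in red, and the rows from the apoptosome genes down stay within 0.29 of 0.

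The genes most like Bcl2a1d over the 4 arrays, by the root mean square difference of their log2 ratios, were Aldh3b1 (0.09), Tmem254c (0.13), and Robo3, Hoxb7 and Fat1 (0.15 each). Aldh3b1 had ratios of -0.84, -1.31 and -0.67 in the clones and -0.88 in the pool. This is a description over 4 arrays, which share the WT pool, and the Bcl2a1d ratios behind it rest on R/R signals mostly not well above background.

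The lines carried an early B-lineage profile, with all 12 genes of that marker list well above background in R/R and WT, and none of their 13 probes tested was called. Some of these genes varied between clones 1, 2 and 3: the log2 ratios were 1.31, -1.67 and 1.92 for Dntt and 0.84, -1.36 and 0.33 for Rag2. Rag1 gave 0.05, -1.35 and 0.62, whereas Ebf1 gave 0.07, 0.07 and -0.22. No mast cell marker (of 5) and no hepatocyte marker (of 4) was well above background in any channel. Of 8 myeloid markers measured 4 were, among them Lyz2 and Itgam, while Mpo, S100a8, S100a9 and Cebpe were not in any channel. The summed intensity of the myeloid list was 17035 to 36014 in the R/R channels and 30232 to 32955 in the WT channels, with none of its 7 probes tested called. Of 6 T and NK markers 3 had a probe tested, and their 4 probes lay between 0.13 and 0.38 with none called. Of 5 erythroid markers only embryonic globin Hbb-bh1 was measured, and it was called lower in R/R (-1.81 ± 0.11, limma adjusted p = 0.0082). The summed intensity of that list was 408 to 458 in R/R and 772 to 879 in WT, and its part in the values of the members was not tested. Between 42.8% and 53.4% of spots were well above background per channel, and no member probe was saturated or flagged as an outlier on any array.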

How the data were processed

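Expression was measured on 4 two-colour Agilent mouse arrays. The intensity columns used were, per the file headers, the median brightness of each spot's pixels and of the background around it, uncorrected, as written by Feature Extraction 11.5.1.1. The scanner software's log10 ratio of Cy5 to Cy3, taken from its processed signals per the file headers, served as an alternative. The flags for well above background, outlier and saturated spots (other values, 0 or 1) are per the file headers too. The log2 ratios deposited by the authors have row numbers that match no probe name (0 of 59305) or feature number (r between -0.0042 and 0.0071 with the ratios made here). Taken in order, they follow the non-control spots closely (r between 0.989 and 0.997). Since no column names their probes, no member value was taken from them. How they were made is not given in the sources used here.

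Background was corrected by normexp with an offset of 50 and each array was loess-normalised (limma 3.58.1, R 4.3.3), with control spots at no weight and 210 to 265 flagged spots per array left out. Of 55681 probes 27656 had 1 symbol through the RefSeq table (GRCm38.p6). The files' own design is on another build, so no probe coordinates are given. Those of the Bcl2a1 windows are from RefSeq on GRCm38.p6. A probe was tested if at least 3 of 4 arrays had its R/R signal, or its WT signal, well above background (26439 probes), each on its own, with a genotype and a dye term. P-values are two-sided with Benjamini-Hochberg adjustment over all of them. In the fitted value the clones' mean and the pool count equally. Channel levels are after loess and Aquantile scaling. The number of arrays limits the precision, and the spread among WT lines was not measured.

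The members and lists were chosen with earlier results of these data known. Named genes are all member probes, called genes and the 2 smallest p of each pathway list, and the 5 most like the largest tested member value. Bax minus Bcl2, Bak1 minus Mcl1 and the contrast of clone 3 with clones 1 and 2 were chosen after the values were seen. So were other genes named by detection alone and the B-lineage markers named for their spread over the clones. Alternatives were the scanner ratios, offset 16, median centring, scaling, no or a stricter filter, 1 probe per gene (the brightest), leaving out the dye term, only the clones, averaging clones 1 and 2, dropping 1 clone at a time, an intensity trend and a threshold of 0.10. On simulated data with 200 of 26439 probes changed, the fit recovered 0% at 1.5-fold, 37.3% at 2-fold and 77.3% at 4-fold, with 3 false among 79 calls. Sequences were aligned with Biopython 1.88.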

Additional observations from a re-analysis of the deposited data

How the results depend on the processing

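The count of members called lower, 1, became 0 with the scanner software's log ratios, with median centring, and with the filter that asks for both channels on all arrays, which removes Bcl2a1d. It ran from 0 to 1 when each clone was left out, and it was 1 in the other settings run. No setting called a member higher. Bcl2a1d (-0.96) kept its sign wherever it was tested but lost its call under the scanner ratios, at -3.04, and under median centring, at -1.03, and it ran from -1.001 to -0.89 with a clone left out. Its adjusted p ranged from 0.0024 to 0.141 over 13 settings. These settings read the same spots, and under the main filter the selection of Bcl2a1d favoured a negative sign. Bax, at 0.01, changed sign with the scanner ratios (-0.0052), with the clones alone (-0.12), with no dye term (-0.056) and without clone 3 (-0.085, in a range up to 0.072 over the clones left out), and Bag1 did so with the clones alone (-0.030). All other members kept their sign and stayed above the threshold in every setting run. The count of pathway probes called lower, 1, was 0 under median centring and under the scanner ratios, where Bbc3 was not called, and 2 with no dye term and at a threshold of 0.10. Bmf (-0.56, adjusted p = 0.090) was added in both, at -0.51 with no dye term (adjusted p = 0.020).

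Over all probes the counts lower and higher, 106 and 49, were 29 and 3 with median centring, 49 and 8 with the scanner ratios, 57 and 31 with the stricter filter, 797 and 632 with no dye term, 61 and 16 without clone 1, 238 and 123 without clone 3, and 248 and 131 at a threshold of 0.10. The cause of these shifts was not tested. The deposited log2 table was not run for members. Each ratio already sets an R/R sample against the WT pool on the same array. No further pairing of the clones with the R/R pool was possible, because only 1 array carried that pool and its contents are not stated. Signal over background limits the Bcl2a1d value, since 1 of 4 R/R channels was well above background.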

Other observations

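The R/R pool can be set beside the clones on a linear scale. For Bok, the mean of the 3 clones' linear ratios was 0.895 and the pool's ratio 0.851, although the single clones differed 4.07-fold between clone 3 and the mean of clones 1 and 2. For the brighter Bcl2l1 probe the mean of the clones was 0.982 and the pool 0.713. The dimmer Bcl2l1 probe gave 0.979 for the clones and 0.934 for the pool, a smaller gap. The pool array was also the only one with swapped dyes. What the R/R pool held is not stated in the sources used here.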
